A study of Saccharomyces cerevisiae with 8 samples.

Results

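RNR2 (YJL026W) and RNR4 (YGR180C) encode the small subunit of ribonucleotide reductase in budding yeast (Saccharomyces cerevisiae), and they were compared between cells lacking SUB1 and wild type. They are 2 of the 3127 genes that a spot with exactly 1 gene symbol represented on these arrays, among 5999 features in all. Both were chosen by symbol, with their ratios after exposure to 4NQO already known and with the ratios on all 8 arrays in view. Their strain ratios are therefore given as a description, with no test. Each gene had 1 spot, and each spot had a value on every array.

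The strains were sub1Δ and wild-type yPH500, both grown in rich medium (YPD) at the labelled density and sampled in 2 conditions. The 4NQO cells of both strains had 4-nitroquinoline 1-oxide added at 1 µg/µl and were incubated for 1 h, and the untreated cells of both strains were taken as the time-zero aliquot. Each array carried sub1Δ RNA in one dye and wild-type RNA of the same condition in the other, so every value is a log2 ratio of sub1Δ over wild type. Each condition had 2 independent experiments, each hybridised again with the dyes exchanged, which gives 4 arrays and n = 2 per condition. No array set 4NQO cells against untreated cells, so the response of either strain to 4NQO was not measured, and 4NQO and the added hour in culture cannot be told apart. The sources used here do not say whether the mutant was 1 clone, and SUB1 had 0 spots with a single symbol, so the deletion was not checked on the arrays.

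Ribonucleotide reductase converts ribonucleotides to the deoxyribonucleotides used in DNA replication and repair. In yeast the Rnr2 protein carries the iron and tyrosyl radical cofactor, and Rnr4, a related protein that lacks a working cofactor site, pairs with Rnr2 and is needed for the cofactor to form. After DNA damage the Mec1, Rad53 and Dun1 kinases relieve repression of RNR2, RNR3 and RNR4 by Rfx1 (also called Crt1), which acts with the corepressors Cyc8 and Tup1. 4NQO forms bulky adducts on DNA, and Sub1 is a transcription coactivator related to human PC4.

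After 4NQO, RNR2 was higher in sub1Δ than in wild type on all 4 arrays. In experiment 1 its log2 ratio was 3.71 with sub1Δ RNA in Cy3 and 1.09 with sub1Δ RNA in Cy5. In experiment 2 it was 3.47 and 1.59 in the same order of dyes. The arrays with sub1Δ in Cy3 gave the higher value in both experiments. The dye-swap means were 2.40 and 2.53, a mean of 2.46 ± 0.09 (SD, n = 2), or 5.52-fold. This small SD arises between 2 means whose own arrays lay 2.62 and 1.88 apart.

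In untreated cells RNR2 lay closer to parity. Its log2 ratio was 0.97 with sub1Δ in Cy3 and 0.59 with sub1Δ in Cy5 in experiment 1, and 1.07 and 0.01 in experiment 2. All 4 arrays were above 0, 1 of them barely. The dye-swap means were 0.78 and 0.54, a mean of 0.66 ± 0.17 (SD, n = 2), or 1.58-fold. The lowest 4NQO array (1.09, sub1Δ in Cy5) lay just above the highest untreated array (1.07, sub1Δ in Cy3). How many features keep the arrays of the 2 conditions apart in this way was not counted.

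RNR4, the partner of RNR2 in the small subunit, was also higher in sub1Δ on all 4 arrays after 4NQO. In experiment 1 the log2 ratio was 4.78 with sub1Δ in Cy3 but 0.31 with sub1Δ in Cy5. In experiment 2 the values were 3.35 and 2.39. The high mean of experiment 1 thus came from the Cy3 array, while the arrays of experiment 2 lay 0.96 apart. The dye-swap means were 2.54 and 2.87, a mean of 2.71 ± 0.23 (SD, n = 2), or 6.54-fold.

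The untreated ratios of RNR4 varied more. In experiment 1 they were 3.21 with sub1Δ in Cy3 and -0.27 with sub1Δ in Cy5, and in experiment 2 they were 0.66 and 0.09. The Cy3 array of experiment 1 was the highest and exceeded 2 of the 4NQO arrays of this gene, so the arrays of the 2 conditions overlapped. The dye-swap means were 1.47 and 0.38, a mean of 0.92 ± 0.77 (SD, n = 2), or 1.90-fold. The 4NQO means of both experiments lay above both untreated means, and the share of features where this holds was not counted.

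**Figure D1:**
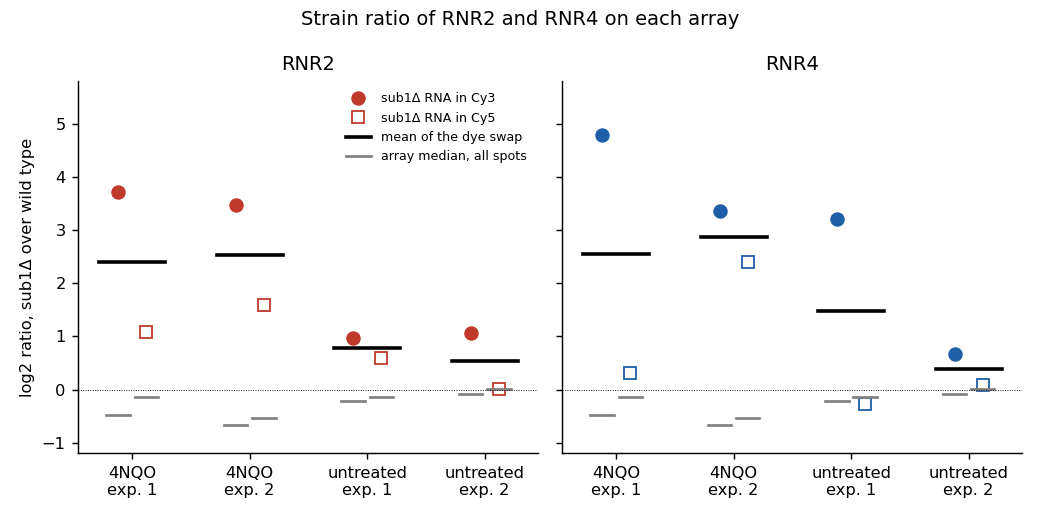
Log2 ratio of sub1Δ over wild type (vertical axis) for RNR2 and RNR4 in each experiment. Filled circles are arrays with sub1Δ RNA in Cy3, open squares arrays with sub1Δ RNA in Cy5, black lines the dye-swap means and grey lines the medians of all spots on an array. RNR2 runs from 1.09 to 3.71 after 4NQO and from 0.01 to 1.07 untreated, and every circle lies above the square of its experiment.

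The strain ratio was larger after 4NQO than in untreated cells for both genes. With arrays of the same experiment number and dye orientation set side by side, the 4NQO value of RNR2 exceeded the untreated one by 2.74 and 0.50 in experiment 1 (sub1Δ in Cy3, then in Cy5) and by 2.40 and 1.57 in experiment 2. The labels do not tie the experiments of the 2 conditions, so this pairing by number is one of 2 possible. For RNR4 the gaps were 1.57 and 0.57 in experiment 1 and 2.69 and 2.30 in experiment 2. All 8 gaps were positive. The mean difference between the conditions, 4NQO minus untreated, was 1.80 ± 0.19 for RNR2 and 1.79 ± 0.81 for RNR4 on the log2 scale (root of the summed variances of the conditions, n = 2 each). Of the 1654 features with a value on all arrays, 213 (12.9%), both genes among them, had all 4 of their gaps positive. In the fit across those features, 0 passed for this difference (limma's moderated test, Benjamini-Hochberg adjusted p threshold 0.05), and 153 had an unadjusted p under 0.05.

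Both genes stood high among all features after 4NQO, whereas the typical feature lay below 0. Of 2194 features with both dye-swap means after 4NQO, 2.60% had a larger mean log2 ratio than RNR2 and 1.69% a larger one than RNR4, and the median feature was at -0.56. These ranks depend on the turning of the dye swaps: if the swapped arrays had been turned before deposit, RNR2 would be at -1.13 with 93.8% of features above it and RNR4 at -1.36 with 95.9%, around a median feature of -0.020. With array medians centred the median feature was at -0.11, RNR2 at 2.92 and RNR4 at 3.16. In untreated cells 12.7% of 3457 features exceeded RNR2 and 5.03% exceeded RNR4, with a median of 0.015. The difference between conditions was less extreme: 9.01% of features had a larger one than RNR2 and 9.13% a larger one than RNR4, with a median of -0.25. Of the 1654 features with complete values, 273 (16.5%), RNR2 and RNR4 among them, were above 0 on all 4 arrays after 4NQO. On all 8 arrays 52 (3.14%), RNR2 among them, were above 0.

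**Figure D2:**
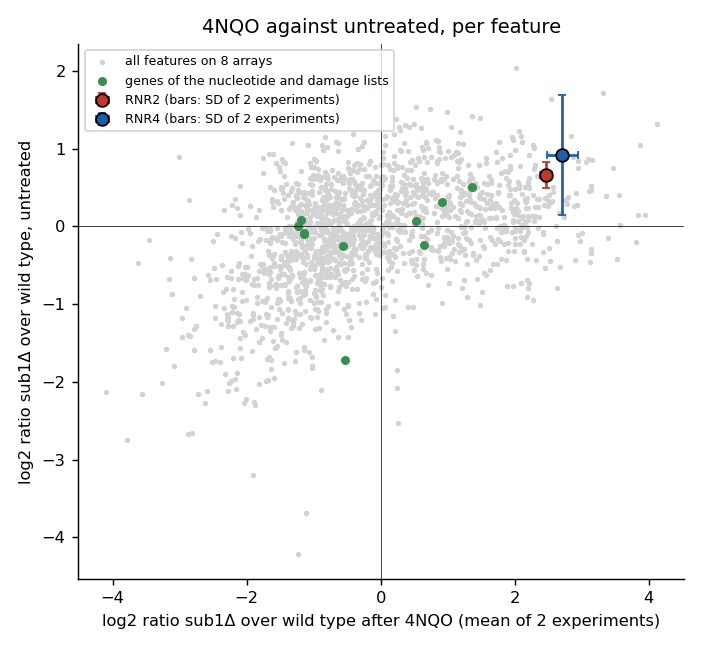
Mean log2 ratio of sub1Δ over wild type after 4NQO (horizontal axis) and in untreated cells (vertical axis) for the 1654 features measured on all 8 arrays, with the genes of the nucleotide and damage lists in green. RNR2 (2.46 after 4NQO, 0.66 untreated) and RNR4 (2.71 and 0.92) lie to the upper right, with bars for the SD of 2 experiments.

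The dye orientation moved with both genes' values. The array with sub1Δ in Cy3 gave the higher ratio in 4 of 4 experiments for RNR2 and in 4 of 4 for RNR4. Across features with complete values this held for 220 of 1654 (13.3%). The log2 ratio with sub1Δ in Cy3 minus that with sub1Δ in Cy5 was 2.62 for RNR2 and 4.47 for RNR4 in 4NQO experiment 1, where the median feature was at -0.12 and 4.80% and 0.777% of features exceeded them. In 4NQO experiment 2 this gap was 1.88 for RNR2 and 0.96 for RNR4, exceeded by 16.7% and 31.7% of features. In untreated experiment 1 it was 0.38 for RNR2 and 3.47 for RNR4, and in untreated experiment 2 it was 1.06 and 0.57.

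Arrays with sub1Δ in Cy3 also spread more widely than their partners over all spots. Their median absolute deviations were 1.51 and 1.90 after 4NQO and 1.26 and 1.00 untreated, against 1.31 and 1.42 after 4NQO and 1.04 and 0.64 untreated with sub1Δ in Cy5. With all arrays scaled to a common spread, the gap between orientations in 4NQO experiment 2 was 0.85 for RNR2 and 0.091 for RNR4, while in 4NQO experiment 1 it was 1.96 and 3.53. Taken from arrays with sub1Δ in Cy5 alone, the mean log2 ratios were 1.34 for RNR2 and 1.35 for RNR4 after 4NQO, and 0.30 and -0.086 in untreated cells. From arrays with sub1Δ in Cy3 alone they were 3.59 and 4.07 after 4NQO, and 1.02 and 1.93 untreated. The 4NQO values of both genes were thus above 0 and above the untreated ones in each orientation, at different sizes.

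**Figure D3:**
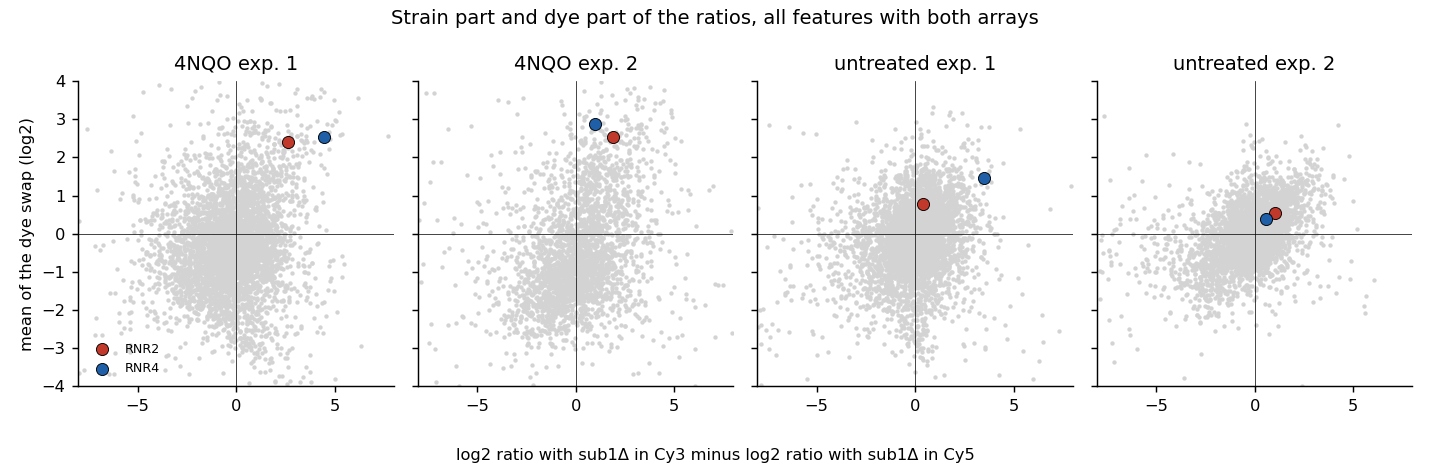
Each panel is 1 experiment and each grey point a feature: the vertical axis is the dye-swap mean of the log2 ratio (sub1Δ over wild type), and the horizontal axis is the log2 ratio with sub1Δ in Cy3 minus that with sub1Δ in Cy5. RNR2 (red) and RNR4 (blue) are to the right of 0 in all 4 experiments and above 2 on the vertical axis in both 4NQO experiments. Between 23 and 68 features per panel fall outside the axes and are not drawn.

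The position of the spots on the slide differed between the genes. Taking the first number of the spot identifier as the print block, RNR2 lay in block 45 and RNR4 in block 20 of 48. The median of the spots around RNR2 in its block was 0.38 and 0.20 in 4NQO experiment 1 (sub1Δ in Cy3, then in Cy5) and -0.11 and -0.57 in 4NQO experiment 2, and RNR2 exceeded these by 3.33, 0.89, 3.58 and 2.16. RNR4 exceeded the medians of its block by 5.18, 0.41, 4.49 and 2.68 on the same arrays. In untreated cells each gene lay below the median of its block on 1 array, RNR2 with a difference of -0.41 and RNR4 with -0.19. Genes with 2 spots had a median absolute difference between their spots of 1.08 to 1.39 after 4NQO and of 0.46 to 1.00 untreated, and neither RNR2 nor RNR4 has a second spot to set against it.

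RNR2 and RNR4 had similar means in each condition, while single arrays differed more, and neither was the higher throughout. RNR2 exceeded RNR4 on 4 of the 8 arrays. The difference RNR2 minus RNR4 averaged -0.25 ± 0.14 after 4NQO and -0.26 ± 0.60 in untreated cells (SD, n = 2), and the single arrays ran from -1.07 to 0.78 after 4NQO and from -2.23 to 0.86 untreated. As the genes encode related proteins, a spot may also bind some cDNA of the other gene, which was not tested.

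Other genes resembled RNR2 more closely than RNR4 did. By the Euclidean distance of the 8 log2 ratios among 946 genes measured on all arrays, the nearest to RNR2 were SCL1, a proteasome core subunit gene, at a distance of 1.20, CPR1, a cyclophilin gene, at 1.51, ERG28, of sterol synthesis, at 1.68, ARC1, which encodes a cofactor of tRNA synthetases, at 1.77, and VOA1, of vacuolar ATPase assembly, at 1.81. RNR4 was the 45th nearest, at 2.88. The mean log2 ratio of SCL1 was 2.37 ± 0.27 after 4NQO and 0.35 ± 0.54 untreated (SD, n = 2), close to the 2.46 and 0.66 of RNR2.

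The genes nearest to RNR4 were ELO1, a fatty acid elongase gene, at a distance of 1.79, GRS1, a glycyl-tRNA synthetase gene, at 2.29, PRO2, of proline synthesis, at 2.36, SCL1 at 2.76 and RNR2 at 2.88. ELO1 averaged 2.30 ± 0.71 after 4NQO and 0.79 ± 0.97 untreated (SD, n = 2). ELO1, GRS1, PRO2 and SCL1 each had the higher ratio with sub1Δ in Cy3 in 4 of 4 experiments, as RNR4 did, and so did SCL1, CPR1 and ERG28 of the genes nearest to RNR2. The Pearson correlation over the 8 arrays was 0.96 for RNR2 with SCL1, 0.96 for RNR4 with ELO1 and 0.83 for RNR2 with RNR4. All points of a correlation come from the same 8 arrays, whose dye orientation and condition they share. The genes were picked as nearest on these arrays, so their dye order, means and correlations follow in part from the picking. Over all features with complete values, 13.3% had this dye order in 4 of 4 experiments.

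**Figure D4:**
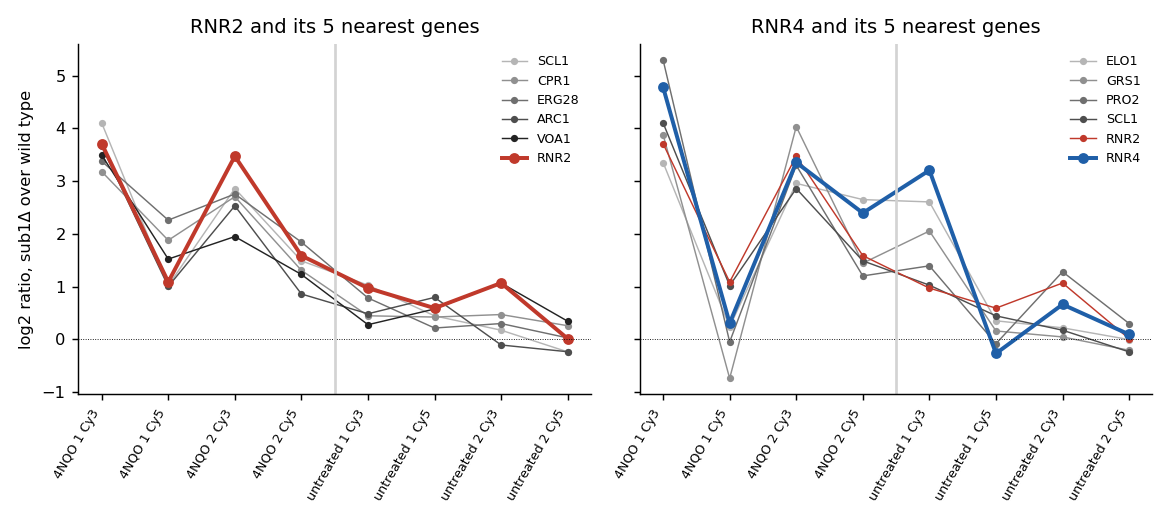
Log2 ratio of sub1Δ over wild type (vertical axis) on each array, named by condition, experiment and the dye of sub1Δ (horizontal axis), for RNR2, RNR4 and the 5 genes nearest to each. The lines alternate between high values with sub1Δ in Cy3 and low ones with sub1Δ in Cy5 to the left of the divider, in 4NQO cells. RNR4 and ELO1 are both high on the first untreated array, at 3.21 for RNR4.

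Ribosomal protein genes, which are abundantly transcribed, also had higher ratios on the 4NQO arrays, a direction that flips if the swaps had been turned before deposit. After 4NQO their median log2 ratio was 2.59 (sub1Δ in Cy3) and 1.36 (sub1Δ in Cy5) in experiment 1 and 1.76 and 0.98 in experiment 2, over 39 to 49 genes. In untreated cells it lay between -0.44 and 0.14. Whether transcript abundance has a part in the ratios of RNR2 and RNR4 was not tested, since intensities were not used here.

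The genes around the small subunit were sparsely measured. Of 72 genes listed from the nucleotide reductase and DNA damage pathways, RNR2 and RNR4 left out, 39 had a spot with a single symbol, 14 could be tested after 4NQO and 24 in untreated cells. The large subunit genes RNR1 and RNR3, the inhibitor genes SML1 and HUG1, and DIF1, which encodes the nuclear import factor of the small subunit, had 0 such spots and are not analysed here. After 4NQO 1 of the 14 tested genes was called higher in sub1Δ and 1 lower (limma's moderated test, Benjamini-Hochberg adjusted p threshold 0.05), beside 9.07% higher and 10.4% lower among all 2194 features (19.5% in either direction). The median of the 14 was -0.84, against -0.56 over all features. In untreated cells 0 of 24 were called, where 0.0289% of all 3457 features were called. An unadjusted p under 0.05 in the same limma fit was found for 3 of the 24 and for 198 of the 3457 features. The median of the 24 was 0.053.

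The gene called higher after 4NQO was TRX2, which encodes a thioredoxin, a reductant of the enzyme. Its log2 ratio was 2.10 and 2.53 in experiment 1 (sub1Δ in Cy3, then in Cy5) and 2.14 and 0.59 in experiment 2, a mean of 1.84 ± 0.67 (SD, n = 2; limma adjusted p = 0.037). It did not show the dye order of RNR2 and RNR4 in experiment 1. The paralog TRX1 did not pass, at 1.36 ± 1.00 (adjusted p = 0.097). Spots of such near copies may bind the cDNA of both. In untreated cells TRX1 was at 0.50 ± 0.07, and TRX2 was at -0.21 in the only experiment with both arrays. The call of TRX2 was lost without either untreated experiment (adjusted p = 0.096 for both), with arrays scaled to a common spread (0.23) and with 1 array standing for a dye swap (0.17). It was also lost with each condition fitted alone (0.096) and with sub1Δ in Cy3 (0.11) or Cy5 (0.27) alone. With dye swaps taken as already turned TRX2 was at -0.28 (0.76). The call was kept with array medians centred (0.039), spot blocks centred (0.020), 4 arrays fitted as 4 values (0.037) and the median over the spots of a gene (0.036).

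The other genes of cofactor assembly and reduction lacked a value on the Cy3 array of 4NQO experiment 2 and were not tested after 4NQO. DRE2, which encodes an iron-sulfur protein of the electron chain that supplies the cofactor of Rnr2, was at 2.34 in experiment 1, with arrays at 3.30 (sub1Δ in Cy3) and 1.39 (sub1Δ in Cy5), and its Cy5 array of experiment 2 was at 1.73. GRX2, a glutaredoxin gene, was at 2.24 in experiment 1, but at 0.25 on the Cy5 array of experiment 2. TRR1, the thioredoxin reductase gene, had arrays at -1.54 and 3.37 in experiment 1 and at -0.26 in experiment 2. In untreated cells DRE2 was at 2.22 on the single array of experiment 1 (sub1Δ in Cy5), above its 4NQO counterpart, and at 0.20 in experiment 2. The untreated values of TRR1 were 1.47 on the single array of experiment 1 and 0.64 in experiment 2, and GRX2 was at 0.15 ± 0.05 (SD, n = 2), where it did not pass.

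The transcription regulators of the RNR genes were unevenly measured. After 4NQO, DUN1, CYC8 and NRM1 had a dye-swap mean in experiment 1 only. DUN1, the kinase gene that acts on Rfx1 repression, was at a log2 ratio of 0.35 in 4NQO experiment 1 and at 0.49 ± 0.27 in untreated cells (SD, n = 2). CYC8, the corepressor gene, was at 0.18 in 4NQO experiment 1 and 0.23 ± 0.35 untreated. IXR1, which encodes a regulator of RNR1 transcription, was at 0.53 ± 0.23 after 4NQO and 0.07 ± 0.48 untreated. MBP1, of the factor that drives RNR1 and other genes at the start of the cell cycle, was at -0.04 and -2.25 in the 2 4NQO experiments and -0.10 ± 0.17 untreated, and NRM1, a repressor of the same gene set, was at -1.67 in 4NQO experiment 1 and -0.67 ± 0.84 untreated. None of these 5 genes passed where it was tested. After 4NQO only IXR1 and MBP1 were tested, where 19.5% of all features were called. All 5 were tested in untreated cells, where 0.0289% of all features were called, so the absence of calls says little.

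Among the genes for localisation of the small subunit, only WTM1 could be tested, in untreated cells. WTM1, which encodes a nuclear anchor of Rnr2 and Rnr4, was at 1.34 and 0.86 in 4NQO experiment 1, at 0.11 on the 1 array of 4NQO experiment 2 with a value, and, in untreated cells, at 2.41 and 0.65 in experiment 1 and 1.25 and 0.87 in experiment 2 (sub1Δ in Cy3, then in Cy5). Its untreated mean of 1.30 ± 0.33 (SD, n = 2) did not pass (limma adjusted p = 0.80) and would be -0.53 if the swaps had been turned before deposit. WTM2, its paralog, had single 4NQO arrays at -0.48 and -2.11 and was at -0.18 in untreated experiment 1. KAP122, an importin gene, had single 4NQO arrays at -0.27 and -1.85 and was at -0.61 in untreated experiment 2.

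Checkpoint genes, which act upstream of RNR2 and RNR4 after damage, lay below 0 after 4NQO, with a median log2 ratio of -1.23 (-0.78 with array medians centred, and 0.67 if the swaps had been turned before deposit), beside -0.56 over all features. RAD53, the kinase gene between MEC1 and DUN1, had a single 4NQO array, at 0.73, and was not tested. Of 5 tested after 4NQO, CHK1, a checkpoint kinase gene, was called lower at -1.85 ± 0.34 (SD, n = 2; limma adjusted p = 0.035), 4 did not pass and 0 were above 0, where 10.4% of the 2194 features were called lower and 735 were above 0. The arrays of CHK1 were at -2.09 and -1.12 in experiment 1 and -4.57 and 0.39 in experiment 2 (sub1Δ in Cy3, then in Cy5), so they did not share a sign. With array medians centred CHK1 was at -1.39 (adjusted p = 0.13) and with spot blocks centred at -1.17 (adjusted p = 0.15). Its call was also lost with arrays scaled to a common spread (0.23) and with 1 array standing for a dye swap (0.17). Fitting 4 arrays as 4 values (0.11), each condition alone (0.095), or sub1Δ in Cy3 (0.094) or Cy5 (0.73) alone lost it too. So did leaving out either untreated experiment. With the median over the spots of a gene it was kept (0.033). TEL1, a damage sensor kinase gene, was at -1.31 ± 0.04 after 4NQO (SD, n = 2; limma adjusted p = 0.11), with the arrays of experiment 1 at -2.72 and 0.04 (sub1Δ in Cy3, then in Cy5). In untreated cells DDC1, of the checkpoint clamp, was at -1.73 ± 1.36 and DPB11, of replication initiation and checkpoint activation, at 0.08 ± 2.79, and neither passed.

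Few genes of neighbouring nucleotide steps and of the damage-induced list could be tested. With 3 and 2 of them tested after 4NQO, where 19.5% of all features were called, and 5 and 8 untreated, where 0.0289% were, the 0 calls among them say little. After 4NQO DFR1, the dihydrofolate reductase gene, was at -1.14 ± 0.51 and DUT1, the dUTPase gene, at 0.64 ± 0.63 (SD, n = 2). In untreated cells CDC8, the thymidylate kinase gene, was at -1.72 ± 0.75 and URA6, a uridylate kinase gene, at 0.67 ± 1.00. Of the damage-induced list, POL1, of DNA polymerase alpha, had a dye-swap mean of 0.91 on the log2 scale in each 4NQO experiment. Its arrays were at 1.01 and 0.81 in experiment 1 and 1.74 and 0.08 in experiment 2 (sub1Δ in Cy3, then in Cy5). RAD54, of recombination repair, was at -0.56 ± 0.36 after 4NQO. In untreated cells UBI4, the polyubiquitin gene, was at 2.83 and -0.41 in the 2 experiments and RAD7, of nucleotide excision repair, at -0.87 ± 0.58.

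**Figure D5:**
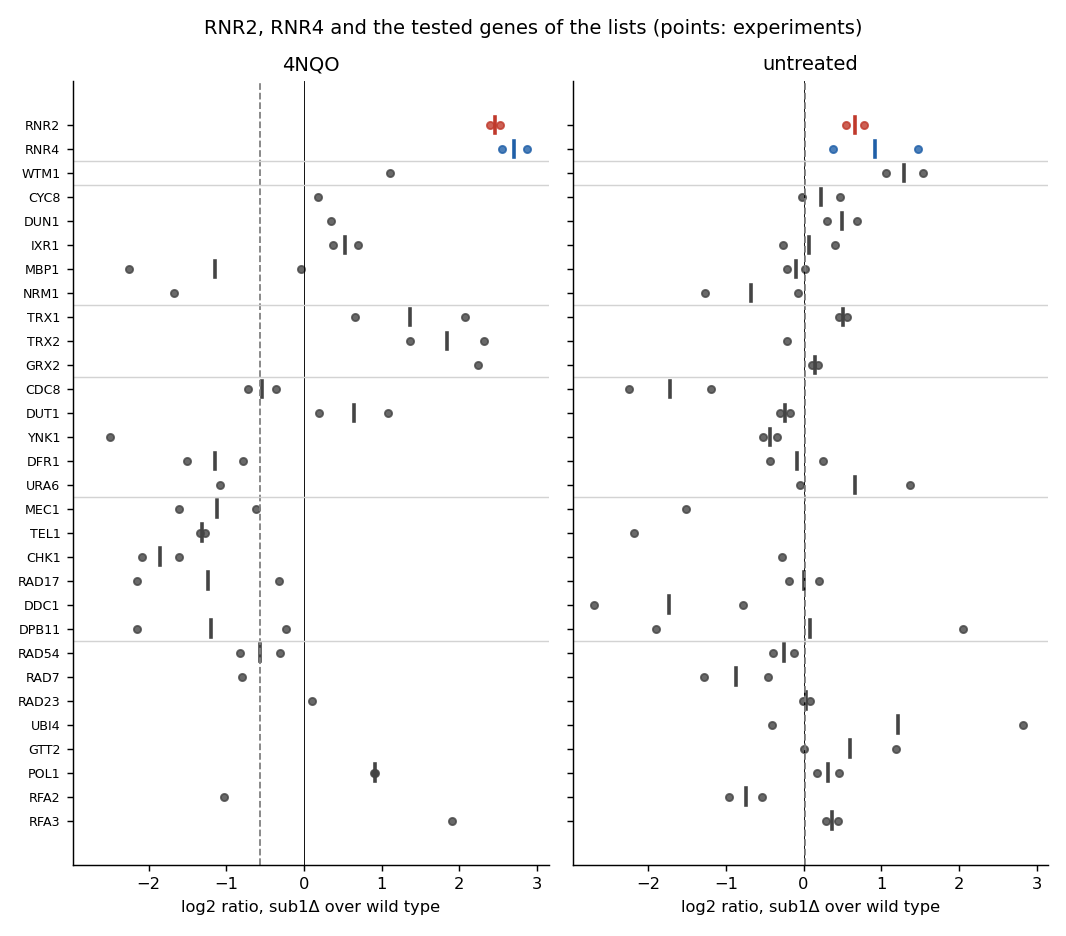
Log2 ratio of sub1Δ over wild type (horizontal axis) for RNR2, RNR4 and each list gene tested in at least 1 condition, after 4NQO on the left and untreated on the right. Points are dye-swap means of single experiments, short vertical bars the means of 2 experiments, dashed lines the median of all features, and grey lines part the lists. After 4NQO RNR2 is at 2.46, RNR4 at 2.71, TRX2 at 1.84 and CHK1 at -1.85, which would be -1.13, -1.36, -0.28 and 1.48 if the swaps had been turned before deposit.

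The arrays had values for 2982 to 5950 of 6216 spots, fewest on the array of 4NQO experiment 2 with sub1Δ in Cy3, and precision is limited by the number of arrays. Over features, the experiments of a condition correlated at r = 0.51 after 4NQO and r = 0.14 untreated, as dye-swap means. As deposited, the 2 arrays of a dye swap had Pearson correlations of -0.26 and -0.33 after 4NQO and of -0.21 and 0.19 untreated. Their Spearman correlations were -0.31 and -0.38 after 4NQO and -0.26 and -0.05 untreated. The turning of the swaps is not stated, so the direction of every ratio depends on the labelled dyes together with the Cy3 over Cy5 ratio of the design text. If the swapped arrays had been turned before deposit, RNR2 and RNR4 would be at -1.13 and -1.36 after 4NQO, with the 2 arrays of each 4NQO experiment of opposite sign.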

How the data were processed

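RNA of sub1Δ and wild-type yeast was hybridised to 8 spotted open reading frame arrays. Per the series' design text, the authors scanned the arrays with GenePix, subtracted background and applied LOWESS (smooth parameter 0.33), and the deposited values are log2 ratios, Cy3 over Cy5, for each spot. limma 2.12.0 is named in the submitters' processing notes. The reason for missing spot values is not stated there. Ratios were multiplied by -1 where sub1Δ was in Cy5. Symbols came from the platform annotation, updated through the RefSeq R64 gene table (3343 of 3344 single-symbol spots matched). Spots of 1 gene were averaged, then the 2 arrays of a dye swap where both had a value. limma 3.58.1 (R 4.3.3) fitted the 4 dye-swap means of all features, and a feature was tested in a condition with both means there (2-sided, Benjamini-Hochberg, threshold 0.05). The p-values rest on the spread between experiments, pooled over both conditions where measured. limma moderates that spread towards one estimated from all features, with 16.8 prior degrees of freedom. The experiments are called independent in the design text, and no more about cultures is stated. The fit was tested on simulated data with 1 noise level for all features and no dye effect. These arrays differ in spread and show dye gaps, so that test does not vouch for the calls. RNR2, RNR4 and the gene lists were chosen with earlier results of these data known. Named genes were all measured genes of the large subunit, localisation, regulator and reductant lists, the called and the 2 lowest-p genes of the others, and the 5 nearest by distance. Alternatives covered centring, scaling, dye turning, missing arrays, samples fitted, averaging, a replicate block and left-out experiments. No sequences or coordinates are printed.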

Additional observations from a re-analysis of the deposited data

Results flagged for a closer look

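Of 42 sets of 4 arrays of 1 gene in 1 condition, 3 held an array far from the other 3, where chance gives about 1 in 20. Neither RNR2 nor RNR4 was among them. DUT1 after 4NQO was at -0.50 on the array of experiment 1 with sub1Δ in Cy3, and at 0.89 to 1.14 on the others. IXR1 in untreated cells was at 1.04 on the array of experiment 1 with sub1Δ in Cy3, and at -0.37 to -0.16 on the others. URA6 in untreated cells was at 2.83 on the array of experiment 2 with sub1Δ in Cy3, and at -0.23 to 0.15 on the others. All 3 arrays had sub1Δ in Cy3.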

How the results depend on the processing

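Of 96 values of RNR2 and RNR4 recomputed under 16 alternatives, 44 were identical by construction, since each gene has 1 spot with all arrays and leaving out one condition's experiment does not touch the other. Of the 52 that changed, 29 moved by less than the SD, 16 moved by more and 7 changed sign. With n = 2, leaving out 1 experiment always moves a mean by less than the SD. The values among the 29 from left-out experiments were therefore fixed in advance. With dye swaps taken as already turned, RNR2 was at -1.13 after 4NQO and -0.36 untreated (difference -0.77), RNR4 at -1.36 and -1.01 (difference -0.35), TRX2 at -0.28 and CHK1 at 1.48, and 0 features and 0 list genes were called after 4NQO. With array medians centred, RNR2 was at 2.92 and RNR4 at 3.16 after 4NQO, and the difference between conditions at 2.16 for RNR2. With arrays scaled to a common spread, RNR2 was at 1.88 and RNR4 at 2.07, and the difference of RNR2 at 1.15. With spot blocks centred, RNR4 was at 3.19. From arrays with sub1Δ in Cy3 alone, an alternative chosen after seeing the data, RNR2 was at 3.59 after 4NQO and 1.02 untreated (difference 2.57) and RNR4 at 4.07 and 1.93. From arrays with sub1Δ in Cy5 alone, RNR2 was at 1.34 and 0.30 (difference 1.04) and RNR4 at 1.35 and -0.086. Where no cause is named, the cause was not tested.

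Calls also depended on the settings. After 4NQO 428 features were called, 199 higher and 229 lower (46.5% higher). Centring array medians gave 212, of which 195 were higher (92.0%), and 1 list gene; centring spot blocks gave 408, of which 284 were higher (69.6%); fitting 4 arrays as 4 values gave 239 and 1 list gene; fitting each condition alone gave 94 and 0 list genes. Arrays with sub1Δ in Cy3 alone gave 1 and 0 list genes. With arrays scaled, with 1 array standing for a dye swap, on features with all 8 arrays, and from arrays with sub1Δ in Cy5 alone, 0 features and 0 list genes were called. In untreated cells 1 feature was called. Fitting each condition alone gave 42, arrays with sub1Δ in Cy3 alone gave 8, centring spot blocks gave 3, and 0 were called with array medians centred, with arrays scaled, with 1 array standing for a dye swap, on features with all 8 arrays, with 4 arrays fitted as 4 values, and from arrays with sub1Δ in Cy5 alone.

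With the experiment number as a replicate block, 0 features and 0 list genes were called after 4NQO and 0 features untreated, in a fit with fewer features and residual degrees of freedom. The experiments' deviations correlated at 0.0998 between conditions, and the labels do not tie the numbers. Leaving out 1 experiment at a time gave 94 to 338 calls after 4NQO, lowest without either untreated experiment, 0 to 42 untreated, highest without either 4NQO experiment, 0 to 47 for the difference between conditions, highest without 4NQO experiment 2, and 0 to 2 list genes after 4NQO. With 1 experiment left out, RNR2 and RNR4 lay between 2.40 and 2.87 after 4NQO and between 0.38 and 1.47 untreated.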
